A study of Mus musculus with 16 samples.

Results

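The genes described here build and load MHC class I molecules in mouse liver. They are the heavy chains H2-K1, H2-D1, H2-Q4, H2-Q6 and H2-Q7, the shared light chain B2m, the peptide transporter subunits Tap1 and Tap2, and the class I transactivator Nlrc5. They were chosen by name: each is the 1 row of the gene count table that carries its symbol, which gives 9 of 33730 genes, and all 9 passed the filter on low counts. The study sequenced RNA from C57BL/6 livers in 4 groups of 4 libraries, taken on day 0 at partial hepatectomy. WT DMSO livers came from wild-type mice given the vehicle DMSO at 1 µL/g, and WT CDDO-Me livers from wild-type mice given CDDO-Me at 3 mg/kg in DMSO, each by intraperitoneal injection 24 h and 1 h before the operation. KO untreated livers came from Nrf2-/- mice with no injection, and KO CDDO-Me livers from Nrf2-/- mice given CDDO-Me on the same schedule, so among KO mice the drug and its vehicle cannot be told apart. The drug, also called bardoxolone methyl, is a man-made triterpenoid that activates NRF2, the transcription factor of antioxidant and detoxification genes that Nfe2l2 encodes. The labels give no age and no sex, and the part of Nfe2l2 that is deleted is not stated in them.

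A class I molecule is a heavy chain held together with beta-2 microglobulin, the product of B2m, and a short peptide cut from proteins of the cell's own cytosol. TAP1 and TAP2 form the transporter that moves these peptides into the endoplasmic reticulum, where the complex is assembled before it travels to the surface and is inspected by CD8 T cells and NK cells. H2-K1 and H2-D1 encode the classical heavy chains Kb and Db of this strain, while H2-Q4, H2-Q6 and H2-Q7 encode non-classical heavy chains of the Qa region. NLRC5 is a nuclear protein that works with a complex on a short promoter module to drive heavy chain, B2m and Tap1 transcription, and interferons are known to raise the whole set.

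All positions are from GENCODE M21 on GRCm38. Of the 9 genes, 7 lie in the major histocompatibility complex on chromosome 17: H2-K1 (ENSMUSG00000061232, chr17:33996017-34000347, minus strand), Tap1 (ENSMUSG00000037321, chr17:34187553-34197225), Tap2 (ENSMUSG00000024339, chr17:34203527-34216321), H2-D1 (ENSMUSG00000073411, chr17:35262730-35267499), H2-Q4 (ENSMUSG00000035929, chr17:35379617-35385290), H2-Q6 (ENSMUSG00000073409, chr17:35424850-35430055) and H2-Q7 (ENSMUSG00000060550, chr17:35439155-35443773). B2m (ENSMUSG00000060802) lies at chr2:122147686-122153083 and Nlrc5 (ENSMUSG00000074151) at chr8:94434356-94527272. Some reads of the Q genes can fit more than 1 gene: 5.99% of the 150-base windows of the longest H2-Q6 transcript were identical to H2-Q7, and 9.68% of those of H2-Q7 were identical to H2-Q6 or H2-Q5, so their split is uncertain. For H2-D1 the share was 1.79%, with H2-Q1, and it was 0 for the other 6. Genes on the other strand overlap H2-Q4 (Gm11131, 16 to 119 counts per library), Tap1 (Psmb9, 58 to 624) and Nlrc5 (9330175E14Rik, 12 to 148), and whether the counting used strand is not given in the sources used here, so such reads cannot be told apart.

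The stretches before the starts of the 3 Q genes and of H2-K1 are shown so that the 3 Q genes can be set beside a classical heavy chain. They are RefSeq sequence on GRCm38.p6 for 7 of the 9 genes, read on each gene's own strand, and the capitals mark matches to 4 motifs searched on both strands in the 250 bases before the start.
H2-Q7, chr17:35439017-35439148, plus strand: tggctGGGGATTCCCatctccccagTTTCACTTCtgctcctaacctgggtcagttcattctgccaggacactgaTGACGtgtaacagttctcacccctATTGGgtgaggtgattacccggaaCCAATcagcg
H2-Q6, chr17:35424672-35424804, plus strand: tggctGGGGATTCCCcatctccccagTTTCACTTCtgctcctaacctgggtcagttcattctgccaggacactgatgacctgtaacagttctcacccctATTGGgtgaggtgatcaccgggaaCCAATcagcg
H2-Q4, chr17:35379438-35379571, plus strand: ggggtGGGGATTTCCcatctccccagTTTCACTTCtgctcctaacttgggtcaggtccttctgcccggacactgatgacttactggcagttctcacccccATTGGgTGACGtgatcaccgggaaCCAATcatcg
H2-K1, chr17:34000354-34000463, minus strand: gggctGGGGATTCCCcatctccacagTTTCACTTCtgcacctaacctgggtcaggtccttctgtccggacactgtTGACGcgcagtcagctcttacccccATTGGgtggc
The motifs were GAANNGAAA, an interferon-response-like word found in 6.31% of 32851 promoters, GGGGATT followed by any base and CC, a kappa B-like word found in 0.240%, TGACG, a cAMP-response-like word found in 17.8%, and ATTGG, the inverted CCAAT word found in 33.8%, and no matches overlapped. The kappa B-like and interferon-response-like words stood in this order in all 5 heavy chain promoters, 10 or 11 bases apart, and 64 or 65 bases lay between the interferon-response-like word and the nearest following CCAAT word. TGACG lay in the window of H2-K1, H2-D1, H2-Q4, H2-Q7, B2m and Tap1 and these letters were not in that of H2-Q6. The H2-Q4 match follows its CCAAT word, whereas the H2-K1, H2-D1 and H2-Q7 matches come before theirs. A match is a description of letters and not evidence of binding.

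**Figure D1:**
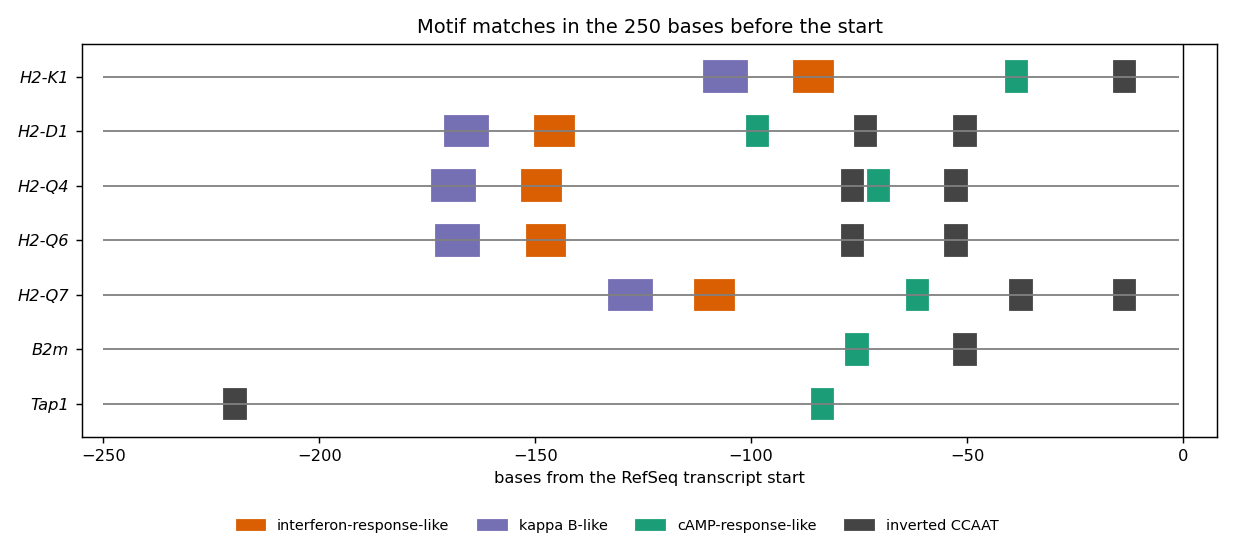
Motif matches in the 250 bases before the RefSeq start of 7 genes. The x axis is the distance from the start in bases, and each block is a match of 1 motif, coloured by motif. The 5 heavy chains share the kappa B-like and interferon-response-like blocks 10 or 11 bases apart, and the B2m and Tap1 windows hold neither.

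Library totals ran from 12002317 to 99284626 counts, the highest in WT CDDO-Me 1, and 20453 to 27594 genes were detected. The members were counted 136 times (H2-Q6) to 70956 times (H2-K1) per library. Levels are given as CPM, counts scaled to library sizes of equal total that were adjusted by the trimmed mean of M values, unless FPKM is named. The defining hepatocyte markers were high in every library, Alb at 446059 to 4811981 counts. The targeted gene, Nfe2l2, was at 42.8 to 74.9 CPM in the WT DMSO libraries and 36.6 to 45.5 CPM after CDDO-Me, and at 19.9 to 51.7 CPM in KO mice left untreated and 15.7 to 21.0 CPM in KO mice given the drug. The 51.7 belongs to the library labelled KO untreated 1 and lies within the WT range, but Nqo1, a classic NRF2 target, was at 0.508 CPM there, against 3.21 to 4.22 in WT DMSO and 0.434 to 1.19 in the other 3 KO untreated libraries. Some libraries stood apart. In WT DMSO 4, 30 interferon-stimulated genes summed to 5175 CPM, against 426 to 1499 in the other 15 libraries. WT DMSO 1 and 2 and KO untreated 2 and the library labelled KO untreated 1 held 0.673% to 0.967% of their counts in genes of the GENCODE types sense intronic and TEC, against 0.186% to 0.407% in the other 12, and are called the intron-rich libraries. The counts of called members are given with and without WT DMSO 4, whereas some values of single members are given with all libraries only. The comparisons of H2-Q6 and H2-Q7 in WT are also given without the intron-rich 4.

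On the deposited FPKM scale, which divides by gene length and so allows genes to be compared, B2m was the most abundant member, at 740 ± 121 FPKM (SD, n = 16), followed by H2-K1 at 320 ± 64.6 and H2-D1 at 161 ± 33.9. The 3 Q genes, Tap1, Tap2 and Nlrc5 were far lower, H2-Q4 at 16.4 ± 8.74 FPKM being the highest of these. The FPKM implies a length of 4265 bases for H2-Q7 and 2596 for H2-Q4. Their longest protein-coding transcripts have 1523 and 1793 bases. In CPM H2-Q7 was at 55.4 ± 24.9 and H2-Q4 at 42.5 ± 26.6 (SD, n = 16), so the order of these 2 genes depends on the length used. The 2 classical chains kept a narrow ratio: H2-K1 FPKM divided by H2-D1 FPKM was 1.74 to 2.24 in all 16 libraries. The other ratios were wider, B2m over the 5 summed heavy chains being 1.00 to 2.19 and Tap1 over Tap2 being 0.483 to 1.46. H2-Q10, a secreted class I chain made by hepatocytes and named here after its values were seen, stood at 307 ± 59.6 FPKM (SD, n = 4) in WT DMSO, a level close to that of H2-K1 in the same libraries (302 ± 90.4).

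In wild-type liver 2 genes were lower with the drug. H2-Q6 and H2-Q7 were lower with CDDO-Me than with DMSO, 3.68-fold and 2.52-fold, and passed the test, while the other 7 did not. Without the intron-rich libraries all 9 log2 fold changes were negative, and the same 2 were called. That fit keeps only WT DMSO 3 and 4 as controls, and WT DMSO 4 had the highest level of 7 of the 9. Without WT DMSO 4, 5 of 9 were negative. When the intronic share was also adjusted for, 0 were called. The wild-type comparison asks how the drug alters the liver at the time of surgery when NRF2 is present, and 2 of the 9 genes were called, both lower. It does not by itself tie a difference to NRF2. A gene was called at an edgeR adjusted p under 0.05 (quasi-likelihood fit, Benjamini-Hochberg over all 16206 genes tested), and 0.173% of these were called lower (0.728% in either direction). The same 2 of 9 were called lower without WT DMSO 4, against 0.681% of 16292 genes (1.34% in either direction). The median log2 fold change of the 9 was -1.05, beside -0.02 for all genes, and without WT DMSO 4 it was -0.06, beside 0.01. In bulk tissue, fewer cells of a type and less RNA per cell cannot be told apart.

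H2-Q7 was at 63.9, 85.0, 45.9 and 121 CPM in WT DMSO 1 to 4, whereas WT CDDO-Me 1 to 4 had 29.5, 31.0, 26.2 and 38.6 CPM. Every WT DMSO library was above every WT CDDO-Me library, with and without WT DMSO 4. The log2 fold change was -1.33 ± 0.25 (SE, edgeR adjusted p = 0.0182), and -1.05 ± 0.22 without WT DMSO 4 (edgeR adjusted p = 0.0257). With 1 library left out at a time it was called in 12 of 16 fits, and the adjusted p rose to 0.0617 without WT DMSO 2, 0.0696 without WT CDDO-Me 1, 0.0776 without WT CDDO-Me 2 and 0.0863 without WT CDDO-Me 3.

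H2-Q6, its close neighbour, was at 28.2, 40.0, 18.0 and 119 CPM in WT DMSO 1 to 4, whereas WT CDDO-Me 1 to 4 had 14.1, 14.9, 10.7 and 16.2 CPM. Again the groups did not overlap, and these 2 genes are the only members of the 9 for which this held; the CPM of 2.84% of all genes tested was lower without overlap (8.69% without WT DMSO 4). The log2 fold change was -1.88 ± 0.41 (SE, edgeR adjusted p = 0.0492), and without WT DMSO 4, the library in which H2-Q6 was highest, it was -1.04 ± 0.22 (edgeR adjusted p = 0.0323), so the fold fell from 3.68 to 2.05. With all libraries the value sits next to the threshold: the call held in 3 of 16 fits with 1 library left out (WT DMSO 1, 3 or 4), and the adjusted p ranged from 0.00672 without WT DMSO 3 to 0.161 without WT CDDO-Me 3. Among the fits that lost it, the adjusted p was 0.0727 without WT DMSO 2, 0.120 without WT CDDO-Me 1, 0.147 without WT CDDO-Me 2 and 0.127 without WT CDDO-Me 4, and 0.05005 to 0.0731 when a KO library was left out.

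H2-Q4, the remaining Qa-region member, was at 41.5, 54.1, 22.9 and 135 CPM in WT DMSO 1 to 4, whereas WT CDDO-Me 1 to 4 had 29.2, 29.1, 22.0 and 26.4 CPM. WT DMSO 3 lay inside the range of the treated libraries. The log2 fold change was -1.25 ± 0.37 (SE, edgeR adjusted p = 0.147), and -0.56 ± 0.24 without WT DMSO 4 (edgeR adjusted p = 0.185). Among the edgeR fits with 1 library left out it was called only without WT DMSO 3, at -1.52 (edgeR adjusted p = 0.0278). The counts of the 3 Q genes were also added before the test, so that the split of counted reads among these 3 does not matter. Reads that were left uncounted or given to H2-Q5 are not in this sum. It was lower with the drug, at -1.43 ± 0.32 log2 (SE, edgeR adjusted p = 0.0497) and -0.88 ± 0.21 without WT DMSO 4 (edgeR adjusted p = 0.0489).

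Nlrc5, the transactivator, was at 87.9, 154, 54.5 and 128 CPM in WT DMSO 1 to 4, whereas WT CDDO-Me 1 to 4 had 65.1, 42.9, 39.1 and 44.3 CPM. WT DMSO 3 was again the low control and lay below WT CDDO-Me 1. The log2 fold change of -1.15 ± 0.33 (SE, edgeR adjusted p = 0.128) changed little without WT DMSO 4, at -1.04 ± 0.35 (edgeR adjusted p = 0.126), and among the edgeR fits with 1 library left out it passed only without WT DMSO 3, at -1.35 (edgeR adjusted p = 0.0438). DESeq2 called 4 members lower, H2-Q4, H2-Q6, H2-Q7 and Nlrc5, as it did 1.29% of genes, and gave no adjusted p for Tap1.

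H2-K1, the classical Kb chain, was at 540, 539, 837 and 1404 CPM in WT DMSO 1 to 4, whereas WT CDDO-Me 1 to 4 had 676, 839, 974 and 843 CPM, so the groups overlapped. Its log2 fold change was 0.01 ± 0.31 (SE, edgeR adjusted p = 0.994) with all libraries and 0.39 ± 0.27 without WT DMSO 4 (edgeR adjusted p = 0.371). H2-D1, the Db chain, was at 275, 281, 388 and 699 CPM with DMSO and at 335, 477, 467 and 480 CPM with CDDO-Me. It gave 0.10 ± 0.32 (edgeR adjusted p = 0.889), and 0.49 ± 0.29 without WT DMSO 4 (edgeR adjusted p = 0.298). B2m, the light chain, was at 400, 412, 714 and 816 CPM with DMSO and at 569, 613, 915 and 713 CPM with CDDO-Me, with 0.26 ± 0.28 (edgeR adjusted p = 0.629) and 0.47 ± 0.28 without WT DMSO 4 (edgeR adjusted p = 0.308). In all 3 genes WT DMSO 1 and 2 were low and WT DMSO 3 and 4 were within or above the treated range, the reverse of what Nlrc5 showed for WT DMSO 1 to 3.

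Tap1 was at 20.9, 21.9, 18.1 and 99.6 CPM in WT DMSO 1 to 4, whereas WT CDDO-Me 1 to 4 had 15.5, 25.0, 21.1 and 16.2 CPM. Of the WT DMSO libraries only WT DMSO 4 stood outside the treated range. Its log2 fold change was -1.05 ± 0.48 (SE, edgeR adjusted p = 0.315) with that library and -0.06 ± 0.32 without it (edgeR adjusted p = 0.909). Tap2, its partner, was at 16.6, 21.0, 25.8 and 49.5 CPM with DMSO and at 21.9, 21.0, 22.1 and 22.3 CPM with CDDO-Me, with -0.37 ± 0.28 (edgeR adjusted p = 0.504) and 0.05 ± 0.22 without WT DMSO 4 (edgeR adjusted p = 0.894).

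**Figure D2:**
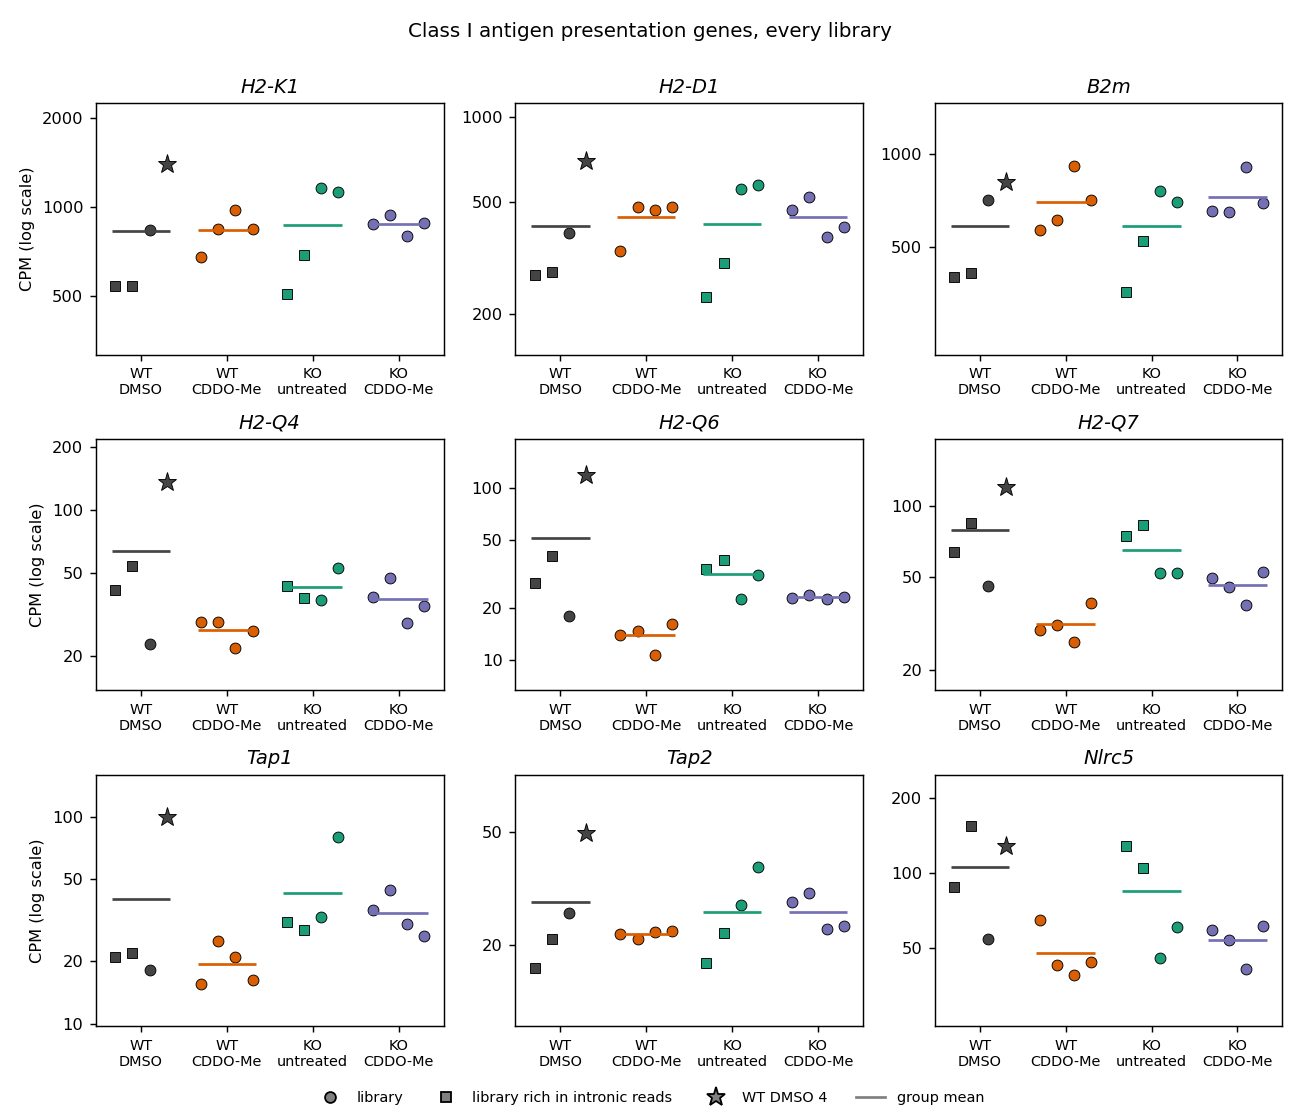
CPM of the 9 genes in every library, on a log scale that differs between panels, by group. Points are libraries 1 to 4 from left to right, squares the intron-rich libraries, the star WT DMSO 4, and lines group means. The WT CDDO-Me libraries of H2-Q6 and H2-Q7 lie below every WT DMSO library, and the star is the highest of 16 in 7 panels and the third highest for B2m and Nlrc5.

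The share of H2-Q4, H2-Q6 and H2-Q7 in the FPKM of the 5 member heavy chains varied with library type as well as with group. Other heavy chains, H2-Q10 among them, are not in this share. H2-Q4, H2-Q6 and H2-Q7 together made up 12.4%, 15.96%, 5.65% and 14.5% of the FPKM of the 5 heavy chains in WT DMSO 1 to 4, whereas in the drug-treated WT libraries 1 to 4 the share was 6.02%, 4.81%, 3.44% and 5.03%. In KO untreated 1 to 4 the share was 15.1%, 12.1%, 5.36% and 6.77%, and the treated KO libraries held 6.39% to 6.91%. The intron-rich libraries held 12.1% to 15.96%, and the other libraries apart from WT DMSO 4 held 3.44% to 6.91%. The same 4 libraries were at 87.9 to 154 CPM for Nlrc5 and 63.9 to 85.0 CPM for H2-Q7, against 39.1 to 65.1 and 26.2 to 52.3 CPM in the 11 others apart from WT DMSO 4. For H2-K1, H2-D1 and B2m the order was turned in CPM: H2-K1 was at 506 to 687 CPM in them against 676 to 1160, H2-D1 at 229 to 303 against 335 to 572, and B2m at 359 to 523 against 569 to 915. In FPKM the ranges of these 3 overlapped, at 243 to 324 against 240 to 435, 125 to 144 against 132 to 215, and 545 to 748 against 617 to 980. Those of H2-Q7 (17.6 to 24.6 against 5.22 to 12.4 FPKM) and Nlrc5 (12.1 to 21.8 against 3.88 to 8.11 FPKM) did not. Summed hepatocyte markers were at 51310 to 61835 CPM in the intron-rich libraries and 73959 to 124837 in the 11 others. The WT DMSO group holds 2 intron-rich libraries and WT CDDO-Me holds none, and its part in the lower Q genes is given only as the values of the fits that leave these libraries out or adjust for the share.

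When the 4 intron-rich libraries were left out, leaving WT DMSO 3 and 4, 0.256% of genes were called lower, and H2-Q6 was at -2.33 ± 0.46 log2 (SE, edgeR adjusted p = 0.0443) and H2-Q7 at -1.45 ± 0.28 (edgeR adjusted p = 0.0420). With the intronic share as a covariate in the fit of all 16 libraries, a setting added after the data were seen, H2-Q6 was at -1.95 ± 0.44 (edgeR adjusted p = 0.0495) and H2-Q7 at -1.24 ± 0.26 (edgeR adjusted p = 0.0320). With that covariate and without WT DMSO 4, the values were -0.71 ± 0.21 for H2-Q6 (edgeR adjusted p = 0.139) and -0.68 ± 0.17 for H2-Q7 (edgeR adjusted p = 0.0894), and neither was called. WT CDDO-Me 1 was the most deeply sequenced library and, with WT DMSO 4, low in nuclear rRNA. Leaving out both kept the sizes at -1.04 ± 0.25 and -1.02 ± 0.24. The edgeR adjusted p rose to 0.0800 and 0.0768, with 0.222% of genes called lower.

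**Figure D3:**
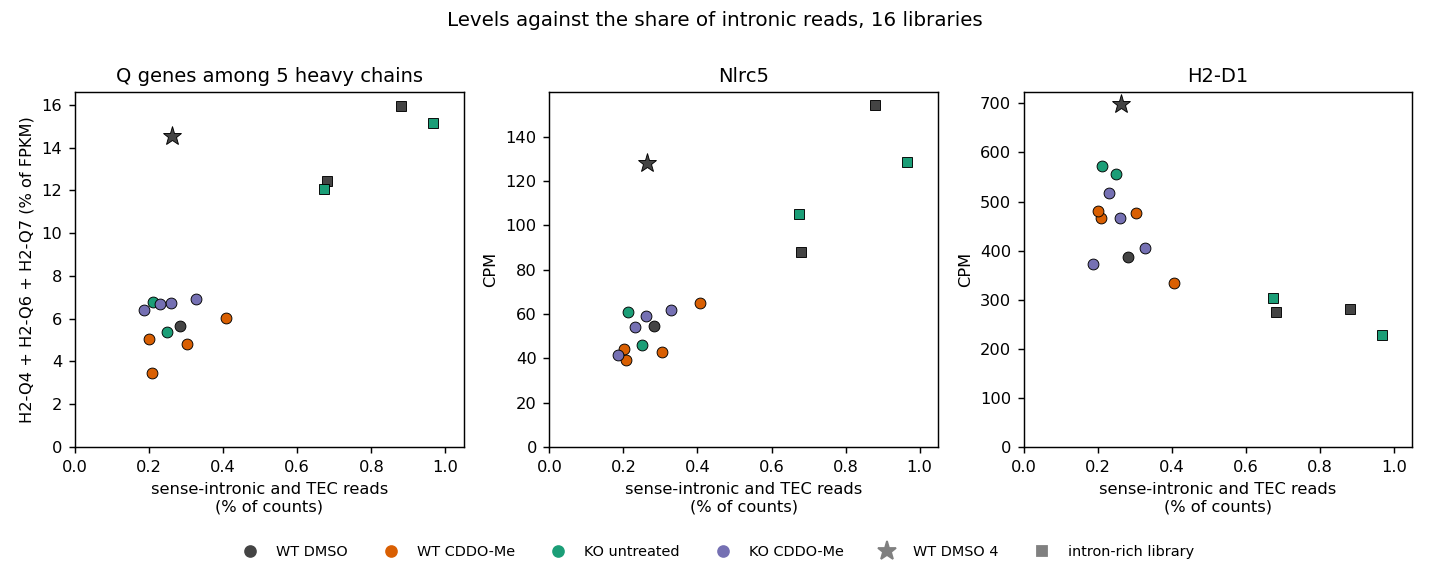
The percent of heavy chain FPKM from H2-Q4, H2-Q6 and H2-Q7, and the CPM of Nlrc5 and H2-D1 (y axes), against the percent of counts in sense-intronic and TEC genes (x axis). Each point is 1 of 16 libraries, coloured by group. The 4 intron-rich libraries, at 0.673% or more, are high for the Q share and Nlrc5 and low for H2-D1, while WT DMSO 4 is high in all 3 panels at an intronic share of 0.263%.

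**Figure D4:**
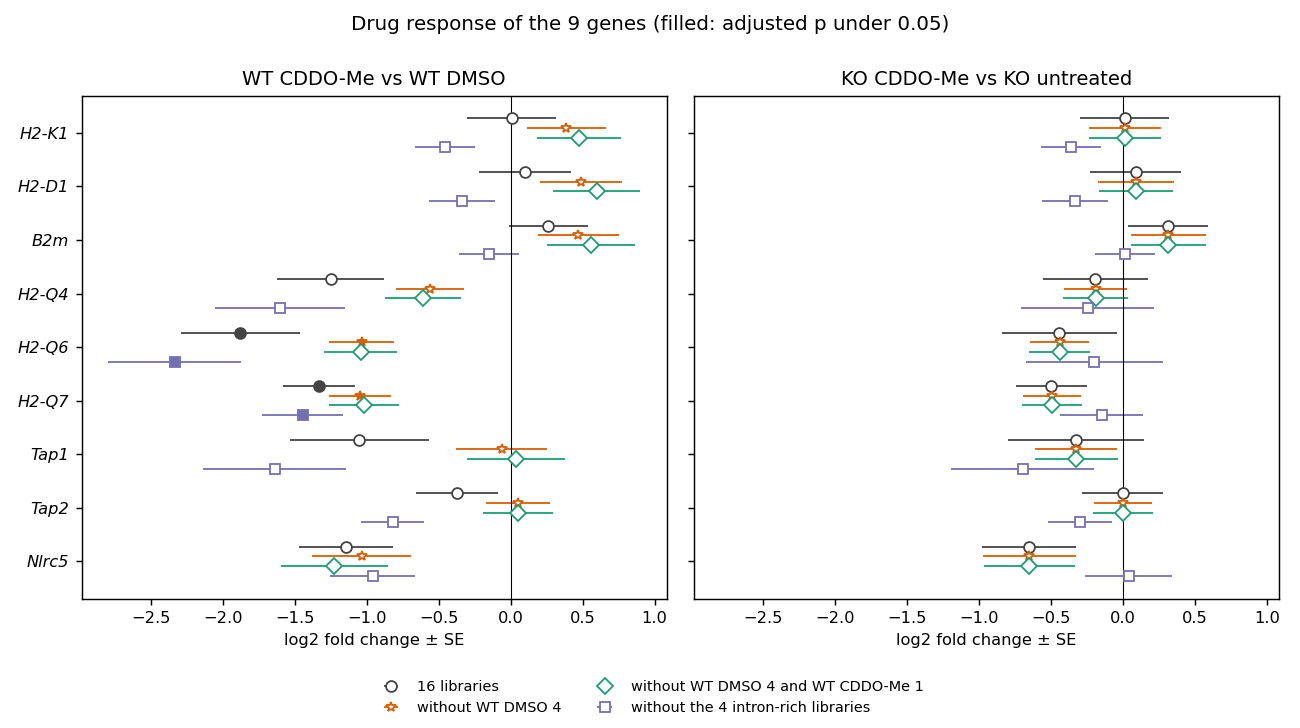
Log2 fold change ± SE of the 9 genes with CDDO-Me (x axis) in wild-type liver (left) and in Nrf2-null liver (right) under 4 choices of libraries. Filled symbols passed an edgeR adjusted p under 0.05. On the left H2-Q6 and H2-Q7 lie below 0 under all 4 choices and H2-K1, H2-D1 and B2m change side, and on the right no symbol is filled.

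In Nrf2-null liver, which asks what the drug with its vehicle does when NRF2 is absent, no member was called. edgeR called 0 of 9 against a background of 0.13% of genes, 0 had an unadjusted p under 0.05, and DESeq2 called 0. In the fit without WT DMSO 4, 0 were called against 0.816% of genes, and 2 had an unadjusted p under 0.05. H2-Q7 was at 74.7, 82.8, 52.0 and 51.8 CPM in KO untreated 1 to 4, whereas KO CDDO-Me 1 to 4 had 49.6, 45.1, 37.9 and 52.3 CPM. The groups overlapped, and its log2 fold change was -0.50 ± 0.25 (SE, edgeR adjusted p = 0.332, and 0.196 without WT DMSO 4). H2-Q6 was at 33.98, 38.0, 22.7 and 31.3 CPM untreated and at 23.0, 23.8, 22.6 and 23.3 CPM with the drug. This gave a log2 difference of -0.44 ± 0.40 (edgeR adjusted p = 0.552, and 0.241 without WT DMSO 4), and the 4 treated libraries were nearly equal. Nlrc5 was at 129, 105, 46.0 and 60.8 CPM untreated and at 59.1, 54.0, 41.4 and 61.8 CPM with the drug. Its log2 fold change of -0.65 ± 0.32 (edgeR adjusted p = 0.333) turned to 0.04 without the intron-rich libraries. The other 6 members had log2 fold changes between -0.33 (Tap1) and 0.31 (B2m). Without the library labelled KO untreated 1, H2-Q7 was at -0.44, H2-Q6 at -0.42 and Nlrc5 at -0.40, and no member was called.

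The difference between the drug responses, WT minus KO, was tested as an interaction. edgeR called 0 of 9 members, against 0.13% of genes, with 2 at an unadjusted p under 0.05, and DESeq2 called 0. H2-Q6 had -1.44 ± 0.57 log2 (SE, edgeR adjusted p = 0.461) and H2-Q7 -0.83 ± 0.35 (edgeR adjusted p = 0.511). In the fit without WT DMSO 4, which left 0.196% of genes called, they had -0.60 ± 0.30 (edgeR adjusted p = 0.620) and -0.55 ± 0.30 (edgeR adjusted p = 0.667). The lower Q genes in wild-type liver were not shown to differ from the response in Nrf2-null liver, nor shown to be alike.

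Between the genotypes under the drug, all 9 members had a positive log2 fold change in KO CDDO-Me over WT CDDO-Me, but edgeR called 0 of 9 against 3.3% of genes, with 1 at an unadjusted p under 0.05, and DESeq2 called 0. It called 0 without WT DMSO 4 against 5.03% of genes, with 4 at an unadjusted p under 0.05. H2-Q6 lay at 22.6 to 23.8 CPM in the treated KO libraries, above the 10.7 to 16.2 CPM of treated WT libraries, a log2 difference of 0.73 ± 0.40 (SE, edgeR adjusted p = 0.389, and 0.0570 without WT DMSO 4). Tap1 was at 35.5, 44.4, 30.4 and 26.5 CPM in KO CDDO-Me, above all 4 WT CDDO-Me libraries, with 0.82 ± 0.48 (edgeR adjusted p = 0.424, and 0.121 without WT DMSO 4). H2-Q7 differed by 0.56 ± 0.25 (edgeR adjusted p = 0.255, and 0.128 without WT DMSO 4). H2-Q6, Tap1 and Tap2 did not overlap between these groups, 3 of 9, where 9.25% of all genes tested were higher without overlap. When only these 2 groups were fitted, edgeR called H2-Q6, H2-Q7 and Tap1 higher in KO, with 6.45% of 15097 genes called higher.

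Between the genotypes without the drug, the signs of the Q gene differences turned with WT DMSO 4. edgeR called 0 of 9 members in KO untreated against WT DMSO, 0 at an unadjusted p under 0.05, against 1.38% of genes, and DESeq2 called 0. H2-Q4 was at 43.1, 37.7, 37.1 and 52.4 CPM in KO untreated 1 to 4. Its log2 difference was -0.58 ± 0.37 (SE) with WT DMSO 4 and 0.11 ± 0.24 without it, and that of H2-Q6 was -0.71 ± 0.40 and 0.13 ± 0.22. Tap1 was at 30.8, 28.2, 32.6 and 79.8 CPM in KO untreated, with 0.09 ± 0.47 (edgeR adjusted p = 0.974). With WT DMSO 4 set aside, every KO untreated library was above the 3 remaining controls, and the difference was 1.08 ± 0.32 (edgeR adjusted p = 0.123), still not called. In that fit 0 of 9 were called against 1.28% of genes, with 1 at an unadjusted p under 0.05, and Tap1 was the 1 member higher without overlap, as were 4.58% of genes. This comparison shares its WT DMSO libraries with the drug comparison in wild-type liver, so the values of the 2 are not independent. The vehicle goes with the genotype in it, and the share of nuclear rRNA largely does. H2-K1 was at 506, 687, 1160 and 1124 CPM, H2-D1 at 229, 303, 555 and 572 CPM, B2m at 359, 523, 761 and 702 CPM and Tap2 at 17.3, 22.1, 27.6 and 37.7 CPM in KO untreated 1 to 4, each lower in the intron-rich pair than in the other 2. In KO CDDO-Me these genes were at 799 to 941, 373 to 518, 650 to 909 and 22.7 to 30.5 CPM, and H2-Q4 was at 28.9 to 47.1 CPM.

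WT DMSO 4 had the highest level of 7 of the 9 genes. Its CPM divided by the median of the other 15 libraries was 5.17 for H2-Q6, 3.75 for Tap1, 3.65 for H2-Q4, 2.43 for H2-Q7, 2.22 for Tap2, 2.17 for Nlrc5, 1.72 for H2-D1, 1.67 for H2-K1 and 1.24 for B2m. A ratio of at least 2 was seen for 6 of 9 members and 7.55% of all genes tested, and the medians were 2.22 and 0.992. These describe 1 library and carry no test. The ratio also differed inside pairs of similar genes: H2-Q6 over H2-Q7 FPKM was 2.02 in WT DMSO 4 and 0.802 to 1.24 elsewhere. Interferon-stimulated genes, whose products block virus growth, had a median ratio of 12.8 over 30 genes, with 29 at 2 or more, and were led by the chemokine Cxcl10 at 420 CPM, a ratio of 182. Socs1, the inhibitor of interferon receptor signalling, led the transactivator partner and interferon signalling list at 70.3 (median 1.41 over 25 genes). Psmb10, an immunoproteasome subunit, led its list at 2.33 (median 1.45 over 7), Tapbpl, a peptide-editing relative of tapasin, the loading list at 2.84 (median 1.198 over 11), and H2-K2 the other class I heavy chains at 4.44 (median 1.13 over 14). The class II list had a median of 0.892 over 8 genes, led by H2-Aa at 1.34. Marker sums of other cells also stood apart in this library, in both directions. The 7 neutrophil and monocyte markers summed to 33.0 CPM, against 1.804 to 11.6 in the other libraries, with Ly6g at 0 in 11 and Camp at 0 in 15 of the 16, and S100a8 and S100a9 had ratios of 19.9 and 19.2, against 1.56 for Ly6c2 and 1.046 for Ccr2. The 4 cholangiocyte markers summed to 36.6 CPM against 4.02 to 16.8, while the 10 Kupffer cell markers, at 220 CPM against 263 to 633, and the 6 endothelial markers, at 224 CPM against 243 to 383, were the lowest of 16. The endothelial markers differed in direction. Kdr, Stab2, Clec4g and Pecam1 had ratios of 0.316, 0.538, 0.663 and 0.873, against 1.37 for Cdh5 and 2.41 for Lyve1. The part of these cell types in the class I levels was not tested.

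**Figure D5:**
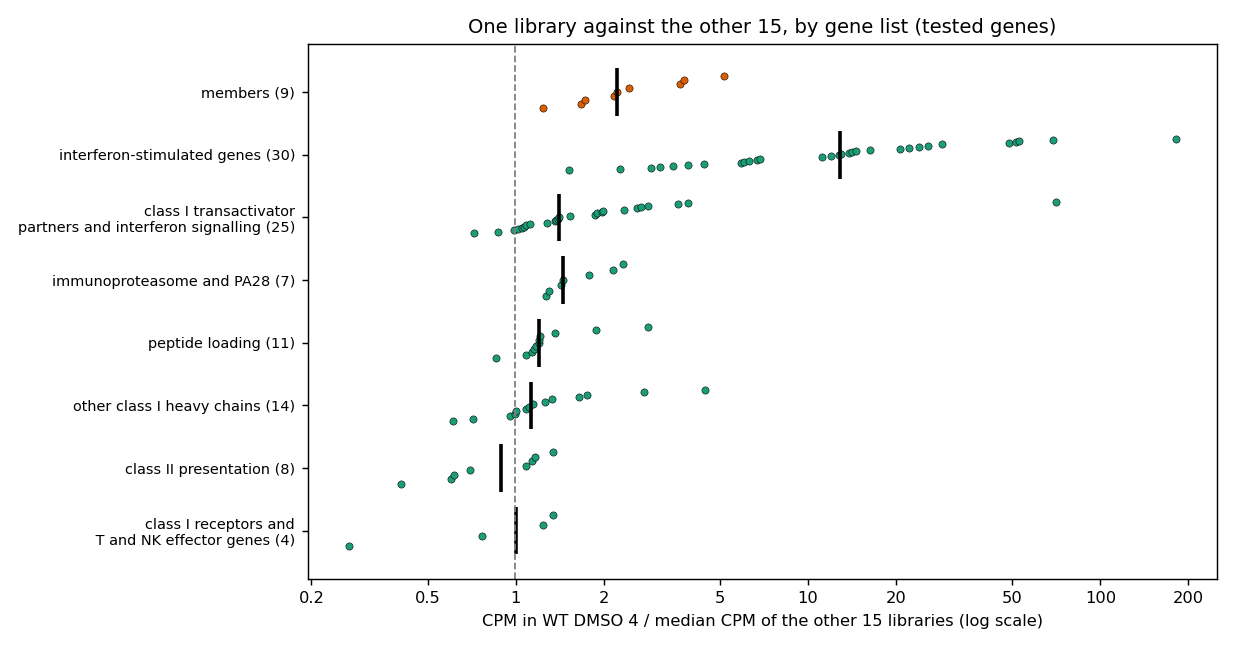
CPM in WT DMSO 4 divided by the median CPM of the other 15 libraries (x axis, log scale) for each tested gene of 8 lists, with the number of genes in parentheses. Points are genes, black bars list medians and the dashed line the median of all genes tested, 0.992. The 9 members have a median of 2.22 and the interferon-stimulated genes 12.8.

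The likeness of other genes to Tap1 was ranked by Spearman rho. Among the genes most like it in log2 CPM over the 15 libraries without WT DMSO 4 were Tgtp2 (Spearman rho 0.986), Tgtp1 (0.950), Gm12250 (0.946), Parp12 (0.943), Psmb9 (0.921), Ifih1 (0.911) and E130311K13Rik (0.900), out of 13626 genes with a median rho of 0.018. The same measure was 0.568 for H2-Q4, 0.564 for Tap2, 0.479 for H2-Q6, 0.429 for H2-K1, 0.379 for H2-D1, 0.275 for H2-Q7, 0.046 for B2m and -0.007 for Nlrc5. These are descriptions over 15 libraries that share groups, depth and library type. With WT DMSO 4 included, the rho of E130311K13Rik was 0.632, and Psmb9 overlaps Tap1 on the other strand. KO untreated 4 was second to WT DMSO 4 for Tap1, at 79.8 CPM, and also for the summed interferon-stimulated genes, at 1499 CPM.

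Of the wider class I pathway, listed by function, few genes were called. In wild-type liver with the drug, edgeR called 0 of 14 other class I heavy chains (6 at an unadjusted p under 0.05, DESeq2 3 lower), 0 of 11 peptide loading genes (0, DESeq2 0), 0 of 7 immunoproteasome and PA28 genes (0, DESeq2 0), 0 of 3 constitutive proteasome partners (1, DESeq2 0) and 0 of 25 transactivator partners and interferon signalling genes (4, DESeq2 0). H2-K2, which had the highest ratio of its list in WT DMSO 4, was at 4.82 to 21.9 CPM with DMSO and 3.20 to 3.76 CPM with the drug, with -2.04 ± 0.47 log2 (SE, edgeR adjusted p = 0.0599). Leaving out WT DMSO 4 gave -1.94 ± 0.50 (edgeR adjusted p = 0.0699), so it was not called in either. Of the 30 interferon-stimulated genes 0 were called (21 at an unadjusted p under 0.05, DESeq2 2 lower), with a median of -1.93. In the fit that leaves out WT DMSO 4, 0 were called (2 unadjusted) and the median was 0.23, while without the intron-rich libraries, which leaves WT DMSO 4 as 1 of 2 controls, 8 were called lower and the median was -2.75. Of 8 class II genes, which present peptides to CD4 T cells, and 4 class I receptor and effector genes, 0 and 0 were called (1 and 0 unadjusted, DESeq2 0 and 0). Of 10 markers of Kupffer cells, the liver macrophages, 4 were called higher with the drug, Cd5l, Marco, Clec4f and Adgre1 (Marco and Cd5l without WT DMSO 4). With 1 library left out they were called in 16, 15, 4 and 3 of 16 fits, and the 10 summed to 220 to 284 CPM with DMSO and 470 to 633 CPM with the drug. Their part in the class I values was not tested.

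Between genotypes without the drug, H2-Q1, a neighbouring Qa-region heavy chain that shares sequence with H2-D1, was the 1 of 14 other heavy chains called, higher in KO. Its KO untreated libraries, at 9.60 to 20.2 CPM, all lay above the WT DMSO ones, at 4.93 to 5.88 CPM, a log2 difference of 1.37 ± 0.23 (SE, edgeR adjusted p = 0.00731, and 0.0139 without WT DMSO 4), and it was called in all 16 fits that left out 1 library (highest adjusted p 0.0236, without KO untreated 3). Under the drug it was at 10.2 to 17.8 CPM in KO and 6.98 to 7.75 CPM in WT, with 0.76 ± 0.23 (edgeR adjusted p = 0.0808), so the direction was the same and the call was not made. Stat3, a signalling factor downstream of interleukin-6, was lower in KO untreated, 1 of 25 in its list, at -1.10 ± 0.24 (edgeR adjusted p = 0.0302), but at -0.80 ± 0.20 without WT DMSO 4 (edgeR adjusted p = 0.0608). Without the intron-rich libraries H2-Q1 was called, at 1.62 ± 0.26 (edgeR adjusted p = 0.0265), and Stat3 was not. Of the interferon-stimulated genes 0 of 30 were called with all libraries (10 unadjusted, DESeq2 1 lower). Leaving out WT DMSO 4, 6 were higher in KO untreated, among them Cxcl9 at 3.00 ± 0.45, Ifit2 at 1.62 ± 0.30, Ifit3b at 1.54 ± 0.30 and Ifit3 at 1.42 ± 0.28.

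With the drug in Nrf2-null liver, edgeR called 0 genes of these lists with all libraries; at an unadjusted p under 0.05 were 3 of 14 heavy chains, 1 of 11 loading genes, 4 of 25 signalling genes, 4 of 30 interferon-stimulated genes, 7 of 8 class II genes and 0 of the other lists. DESeq2 called 2 heavy chains lower, 1 signalling gene in each direction, 1 interferon-stimulated gene lower and 4 class II genes higher. In the fit without WT DMSO 4, H2-T24, a heavy chain gene of the T region, was lower at -1.01 ± 0.22 (SE, edgeR adjusted p = 0.0471), and so were Irf7 at -1.05 ± 0.22 and Irf2 at -0.76 ± 0.17, both interferon regulatory factors, and 4 of 30 interferon-stimulated genes, Oasl2 at -1.74 ± 0.24, Ifi44, Cxcl9 and Oas3. The library left out belongs to neither KO group, and the H2-T24 difference was -1.01 with it as well (edgeR adjusted p = 0.0956). Under the drug, 2 of 8 class II genes were called higher in KO than in WT livers, H2-Eb1 at 1.48 ± 0.31 (edgeR adjusted p = 0.0144) and H2-Aa at 1.46 ± 0.33 (edgeR adjusted p = 0.0213), and 4 without WT DMSO 4. Of the markers of plasma cells and of B cells, which carry class II, Ighm was called higher in KO at 2.51 ± 0.30. It reached 448 counts per library, against 78 for Igkc, the next highest of the 7. The 7 markers, Ighm included, summed to 10.12 to 15.7 CPM in treated KO livers and 2.68 to 4.08 CPM in treated WT livers. Their part in the class II values was not tested. With 1 library left out H2-Eb1 was called in 14 of 16 fits and H2-Aa in 12, with the highest edgeR adjusted p, 0.0608 and 0.0796, without WT CDDO-Me 3.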

How the data were processed

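Liver RNA of 16 libraries was compared. The authors deposited raw counts as whole numbers. TopHat2 2.1.0, HTSeq 0.6.1p1, GRCm38.p5, DESeq2, cutadapt 1.2.1 and CASAVA 1.8.2 are named per the submitters' processing notes, while the annotation release and strand setting were not given in the sources used here. FPKM values deposited by the authors equal count per gene length and library total, with a largest relative deviation of 8.71e-07. The members and gene lists were chosen with earlier results of these data known. GENCODE M21 matched 33629 of 33730 gene IDs.

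The test was edgeR 4.0.16 (quasi-likelihood, TMM scaling, filterByExpr by group) in R 4.3.3, fitted to all 16 libraries with 12 residual degrees of freedom and Benjamini-Hochberg adjustment over 16206 genes, and repeated without WT DMSO 4 over 16292 genes. Alternatives were other scalings and filters, DESeq2 1.42.0, limma 3.58.1 on log2 FPKM with a pseudocount of 1 or 0.1, left-out libraries, the compared groups alone, a replicate block and an intronic covariate. Single values carry counting error that the totals of 12002317 to 99284626 counts keep small for these genes. The labels do not state that each library is a separate animal, so p-values measure the spread between these libraries, which may be technical. No pair of libraries was a duplicate (lowest chi-square per degree of freedom 16.7).

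All 9 members are named, with from each pathway list the called genes (at most 4 per comparison) and the gene highest in WT DMSO 4 relative to the other 15 libraries, and the genes most like Tap1, of which 1 is not reported here. Replicate numbers are shared by the groups. Same-numbered libraries of WT DMSO and KO untreated deviated together (correlation 0.371 to 0.483 in 4 of 4 pairs). In the other comparisons same-numbered libraries did not all deviate together. The labels state no pairing, and over all group pairs differently numbered libraries correlated at -0.603 to 0.663. Numbers 1 and 2 of WT DMSO and KO untreated are the intron-rich libraries, so a pairing and a shared library type cannot be told apart. The values given are from the fit without a replicate block. Between KO untreated and WT DMSO the block changed no member call (0 called in both fits).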

Additional observations from a re-analysis of the deposited data

Results flagged for a closer look

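In 36 combinations of member and group, 3 held a library whose gap to its nearest neighbour took up more of the group's range than Dixon's 95% critical value for 4 samples, and chance gives about 1 in 20. Tap1 in WT DMSO 4 stood at 99.6 CPM, far above the other 3 WT DMSO libraries (18.1 to 21.9 CPM). Tap1 in KO untreated 4 stood at 79.8 CPM, above 28.2 to 32.6 CPM in the other 3. H2-D1 in WT CDDO-Me 1, the most deeply sequenced library, stood at 335 CPM, below 467 to 480 CPM in the other 3. The 30 interferon-stimulated genes summed to 5175 CPM in WT DMSO 4 and 1499 CPM in KO untreated 4.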

How the results depend on the processing

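Of 1296 alternative values for 45 results on members, 160 had the other sign, 26 lost a call and 10 gained one. A sign change is counted as a reversal below where the first value exceeded its standard error. In wild-type liver with the drug 2 members were called, against 4 by DESeq2, 0 and 1 by limma on log2 FPKM with a pseudocount of 1 and 0.1, 0 without WT DMSO 4 and WT CDDO-Me 1, 0 with the compared groups alone, 0 with the intronic covariate without WT DMSO 4, and 0 to 4 with 1 library left out. Under the drug between genotypes, 3 members were called with the compared groups alone and 2 with the covariate without WT DMSO 4; in the other comparisons 0 were called in all fits run, and 0 to 0 with 1 library left out.

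Reversals, in log2, are given here, with ranges for 1 library left out at a time. Tap2 in WT with the drug ranged from -0.562 to 0.0504, Tap1 in the interaction from -1.22 to 0.26, and for KO untreated against WT DMSO H2-Q4 ranged from -0.856 to 0.11, H2-Q6 from -0.993 to 0.13 and H2-Q7 from -0.460 to 0.0098, the positive end each time without WT DMSO 4, where the sum of the 3 was 0.0676. Without WT DMSO 4 and WT CDDO-Me 1 they were Tap1 (0.0373) and Tap2 (0.0483) in WT with the drug, Tap1 in the interaction (0.36), and H2-Q4 (0.11), H2-Q6 (0.13) and H2-Q7 (0.0090). With the covariate B2m in KO with the drug became -0.0418, and with it and without WT DMSO 4 B2m was -0.0178, H2-Q4 0.22, H2-Q6 0.27, H2-Q7 0.13 and Tap1 in the interaction 0.10. Without the intron-rich libraries Nlrc5 in KO with the drug was 0.0399. The cause was not tested.

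All genes called, in the order WT drug, KO drug, genotype without drug, genotype with drug and interaction, were 118, 21, 223, 534 and 21. DESeq2 called 466, 299, 653, 1125 and 178. The compared groups alone gave 72, 20 and 2045 for the WT drug response and both genotype comparisons. For the KO response, genotype with drug and interaction, limma gave 67, 959 and 57 (pseudocount 1) and 55, 970 and 54 (0.1). No filter gave 51 for the KO response and 38 for the interaction, and upper-quartile scaling 39 for the latter. Without the intron-rich libraries the last 4 were 4, 86, 1482 and 67, with the covariate 73, 748, 2078 and 154, and with it and without WT DMSO 4 306, 592, 2830 and 215. The KO response was 88 without WT DMSO 4 and WT CDDO-Me 1. With 1 library left out the ranges were 54 to 219, 4 to 133, 104 to 271, 265 to 820 and 18 to 48. The covariate was chosen after seeing the data.

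With a replicate block, genes called were 226, 46, 250, 811 and 42. In WT with the drug, where the libraries share only a number and no pairing was found, 3 members were called with the block, Nlrc5 besides H2-Q6 and H2-Q7, and no other member call changed. Over all group pairs 13 of 24 same-numbered pairs correlated over 0.1 (-0.454 to 0.483), and 7 of 16 libraries matched their own number best.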
